A study of Oryza sativa with 8 samples.

Results

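Lipid transfer protein genes of rice (Oryza sativa) were followed across 8 leaf RNA-seq libraries. The set held 119 of the 43019 genes listed in either of the deposited tables. A gene was taken when its name or description in either table carried the words lipid transfer protein, the symbol OsLTP, or the Pfam entry for a probable lipid transfer domain. Of the 119 genes, 116 were listed in the table of the first 6 libraries and 119 in the table of the other pair.

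The study compared leaves of seedlings 2 weeks old, grown in test tubes on diluted Murashige and Skoog solid medium and then moved to a medium poor in phosphate or kept on normal supply. Each of the 8 groups was 1 library. The dgp1 mutant, the glk1glk2 double mutant and DJ, the wild type both mutants were set against, were each sampled 6 days after transfer to 10 µM KH2PO4 (dgp1_LP, glk1glk2_LP and DJ_LP) and on normal supply (dgp1_CK, glk1glk2_CK and DJ_CK). A second wild type, ZH11, was sampled 24 h after transfer to a medium without phosphate (ZH11_NP) and on normal supply (ZH11_CK). The Golden2-like transcription factors GLK1 and GLK2 switch on chlorophyll and photosynthesis genes, and DGP1 (DEEP GREEN PANICLE1) holds GLK activity down. The labels name neither the mutant alleles nor the number of plants behind a library. With 1 library a group no difference between groups could be tested, and each ratio describes 2 libraries.

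Plant non-specific lipid transfer proteins are small, secreted, cysteine-rich proteins whose helices enclose a hydrophobic tunnel. They bind fatty acids, lysophospholipids and acyl-CoA, and are known for roles in the deposition of cutin and wax at the leaf surface, in pollen wall formation and in defence. Type 1 and type 2 proteins differ in size and in the pairing of their cysteines. Type G proteins are tethered to the outer face of the plasma membrane by a glycosylphosphatidylinositol (GPI) anchor. Hybrid proline-rich proteins join a proline- or glycine-rich stretch to a related domain, and glycolipid transfer proteins, caught by the same words, have an unrelated fold and work inside the cell.

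Levels are in FPKM, fragments per kilobase of gene scaled to library size, the unit inferred for the deposited values. Values of both tables stand side by side here, but ratios were formed only within a table. A member was counted as higher or lower in a comparison when the log2 ratio of FPKM + 1 was at least 2-fold and at least 1 of the 2 libraries had at least 5 FPKM. Reads on genes numbered 12525772 to 16566008 per library, yet the estimated number of distinct cDNA fragments behind them ran from 76922.6 in glk1glk2_CK and 82952.1 in glk1glk2_LP over 286921 in DJ_CK and 757467 in dgp1_CK to 2366570 in DJ_LP. For dgp1_LP, ZH11_NP and ZH11_CK no such estimate could be made and each read was taken as 1 fragment, so their intervals are too narrow if a fragment gave more reads than 1. For a gene of 1 kb, 3 estimated fragments corresponded to 28.0 FPKM in glk1glk2_LP and 31.2 FPKM in glk1glk2_CK, to 1.02 FPKM in DJ_LP and 11.1 FPKM in DJ_CK, and to 0.222 FPKM in dgp1_LP and 5.06 FPKM in dgp1_CK. Intervals given beside folds are exact 95% intervals over estimated fragments and cover counting error only. GLK1 stood at 49.3 FPKM in glk1glk2_LP and 40.9 in glk1glk2_CK, against 129.6 in DJ_LP and 179 in DJ_CK, and GLK2 at 53.0 and 32.2 FPKM in those glk1glk2 libraries, against 86.9 and 96.2 FPKM in those of DJ.

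The 119 members fell by their names and descriptions into 29 type G, 20 type 1, 12 type 2 and 11 type D genes, 1 type C gene, 11 hybrid proline-rich genes and 7 glycolipid transfer genes. The others were 3 non-coding transcripts, 4 transcripts antisense to or nested in another member, and 21 genes described only by the domain or by another name. Of all members, 46 reached 10 FPKM in at least 1 library, 18 stayed above 0 but under 1 FPKM, and 36 were listed at 0 in every library. Reads in all 8 libraries were found for 23 members. Type 1 genes gave 12 of the 46 members at 10 FPKM or more, type G 11, type 2 7, type D 4 and glycolipid transfer genes 4.

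Members at 0 throughout included OSC6, which is needed for the lipid-rich pollen wall, and several genes named for endosperm or prolamin proteins. Osc4, another anther gene, was listed at 21.9 FPKM in glk1glk2_CK and 10.0 FPKM in DJ_CK, at 0 in the other 4 libraries of that table, and under 1 FPKM in both ZH11 libraries. Those values rested on 1.2 and 1.54 estimated fragments. Each of the other 4 tapetum markers stayed under 1 FPKM in every library. The 9 endosperm markers summed to at most 0.990 FPKM, and the 2 meristem markers were listed at 0 in every library.

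Position divided the family as well. In all, 65 members lay in 20 groups of neighbours no more than 100000 bases apart, in the coordinates of the files, whose genome build is not given in the sources used here. The highest type 1 genes sat in 2 of these groups, near the start of chromosome 11 (680034 to 726970, 7 members) and near the start of chromosome 12 (723297 to 762381, 9 members). Together these 2 groups held between 62.2% of the members' summed FPKM, in ZH11_CK, and 91.2%, in DJ_CK. A group of 5 type 2 genes, OsLTP2.7 to OsLTP2.12, lay on chromosome 10 (19288018 to 19335615). Among all members, 22 overlapped another listed gene in the 6-library table and 29 in the ZH11 table, so reads of such genes may be shared, although the library kit marks strand.

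**Figure D1:**
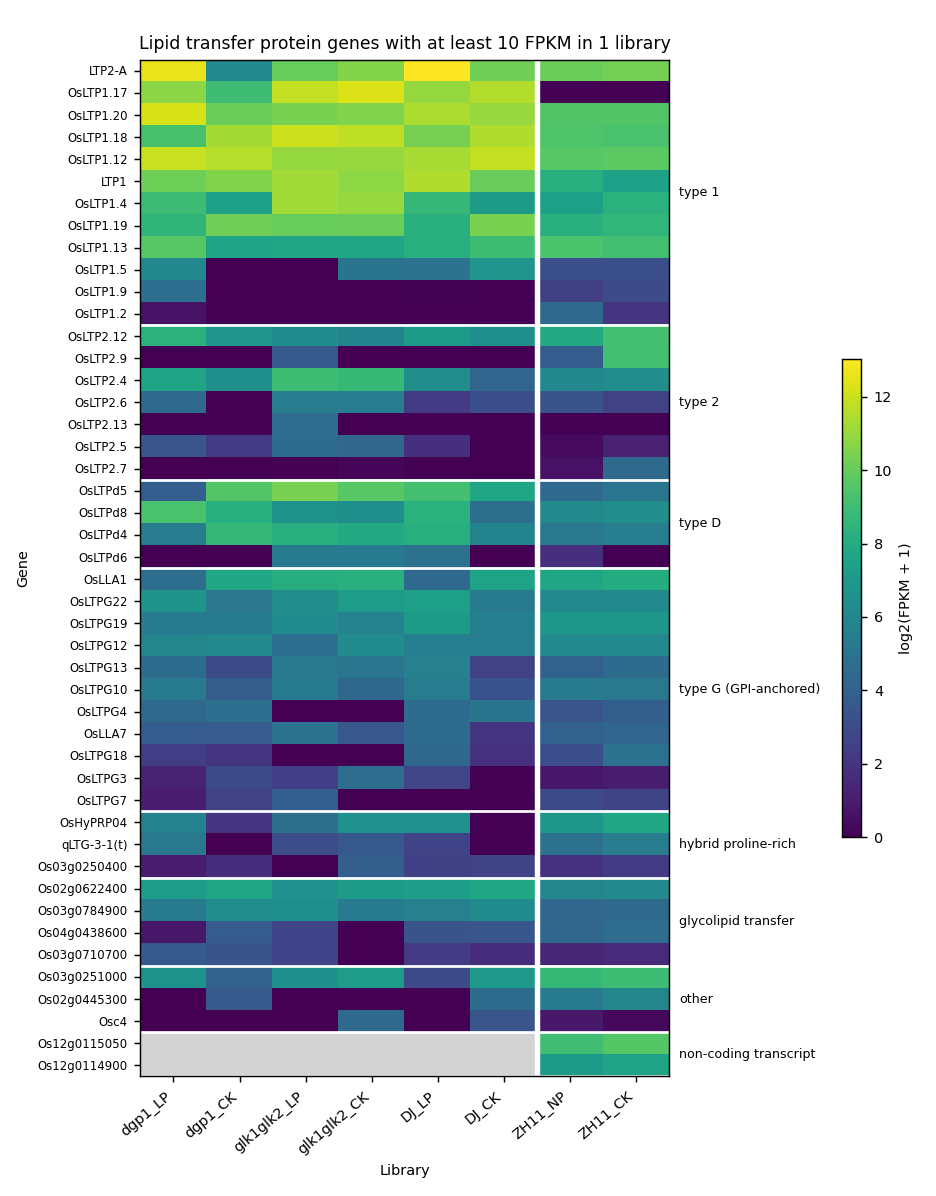
Level of the 46 lipid transfer protein genes that reached 10 FPKM in at least 1 library, as log2(FPKM + 1), with 1 column per library and genes grouped by type and ordered by their highest level. The white line parts the 6-library table from the ZH11 table, and grey marks 2 transcripts listed only in the ZH11 table. Type 1 genes fill the top of the scale, and OsLTP1.17 is listed at 0 in both ZH11 libraries.

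Summed over all members, the genes held 22052 FPKM in dgp1_LP and 12699.6 in dgp1_CK, 21513 in glk1glk2_LP and 21984 in glk1glk2_CK, 23349 in DJ_LP and 17119.7 in DJ_CK, and 7181 in ZH11_NP and 8902 in ZH11_CK. As a share of all FPKM this was 2.40% in dgp1_LP and 1.14% in dgp1_CK, 3.42% in glk1glk2_LP and 3.34% in glk1glk2_CK, 3.66% in DJ_LP and 1.94% in DJ_CK, and 1.07% in ZH11_NP and 1.19% in ZH11_CK. The sum was thus higher on low phosphate in DJ and dgp1. In FPKM the sum was within 1.5-fold of the normal-supply value in DJ, glk1glk2 and ZH11, but not in dgp1. As shares of all FPKM, the 3.66% in DJ_LP and 1.94% in DJ_CK were more than 1.5-fold apart as well. Without LTP2-A, its highest member, the sum was 15906 FPKM in dgp1_LP and 12627.5 in dgp1_CK, and 14970.3 FPKM in DJ_LP and 15919.4 in DJ_CK, so that in DJ its direction turned. As a share of all FPKM the members without LTP2-A still held 2.35% in DJ_LP and 1.80% in DJ_CK. The 6 highest members supplied from 54.0% of the sum, in ZH11_CK, to 85.6%, in DJ_LP. Which member led differed among libraries. LTP2-A was highest in dgp1_LP, DJ_LP and both ZH11 libraries, OsLTP1.12 in dgp1_CK and DJ_CK, OsLTP1.17 in glk1glk2_CK and OsLTP1.18 in glk1glk2_LP.

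**Figure D2:**
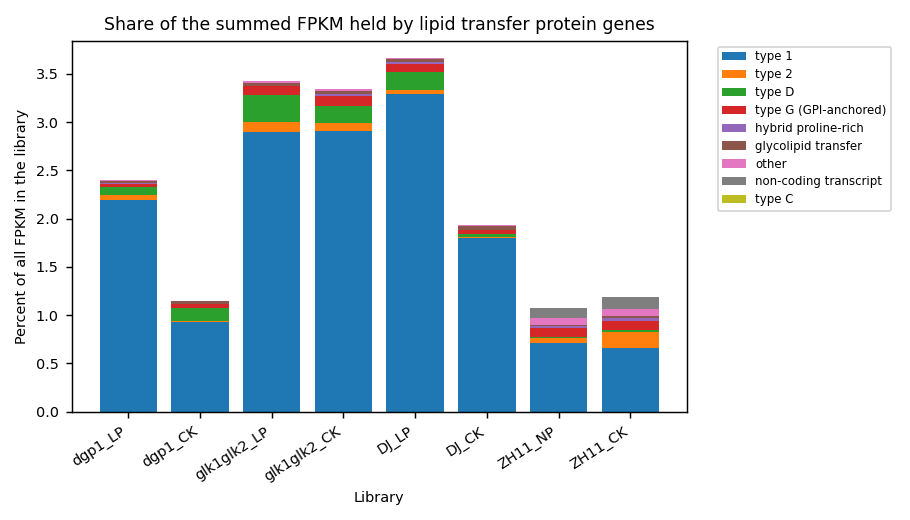
Share of all FPKM in each library (in percent) that came from lipid transfer protein genes, stacked by type. Type 1 genes make up most of every bar in the 6-library table, and the bars of dgp1_LP and DJ_LP stand above those of dgp1_CK and DJ_CK.

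The most abundant member, LTP2-A (Os11g0115350, chromosome 11, 693326 to 694254), encodes a type 1 protein. LTP2-A was listed at 6145 FPKM in dgp1_LP and 72 in dgp1_CK, 1038 in glk1glk2_LP and 1574 in glk1glk2_CK, 8378 in DJ_LP and 1200.3 in DJ_CK, and 1093 in ZH11_NP and 1265 in ZH11_CK. It was low in 1 library of the 8, dgp1_CK, and highest in both dgp1_LP and DJ_LP. OsLTP1.17 (Os12g0115000, chromosome 12, 733276 to 733623), its counterpart on chromosome 12, was listed at 1765 FPKM in dgp1_LP and 507 in dgp1_CK, 3674 in glk1glk2_LP and 5287 in glk1glk2_CK, 1991 in DJ_LP and 2958 in DJ_CK, and 0 in ZH11_NP and 0 in ZH11_CK. Among the first 6 libraries OsLTP1.17 was lowest in dgp1_CK and highest in glk1glk2_CK.

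Its 0 in ZH11 stands beside a difference in annotation. The ZH11 table lists a non-coding transcript, Os12g0114900 (chromosome 12, 732978 to 733800), that covers OsLTP1.17 on the other strand, at 135 FPKM in ZH11_NP and 184 FPKM in ZH11_CK. The table also gives the symbol OsLTP1.17 to a second non-coding entry just downstream on the same strand, Os12g0115050 (733811 to 734096), listed at 532 FPKM in ZH11_NP and 760.0 FPKM in ZH11_CK. Neither of these entries is listed in the 6-library table, where their reads could not be compared. How the counting shared reads among these entries was not tested.

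The other abundant type 1 genes of the clusters had reads in all 8 libraries. OsLTP1.20 (Os12g0115500, chromosome 12, 760947 to 762381) was listed at 4813 FPKM in dgp1_LP and 1084 in dgp1_CK, 1349.7 in glk1glk2_LP and 1516 in glk1glk2_CK, 2791 in DJ_LP and 2055 in DJ_CK, and 716 in ZH11_NP and 723 in ZH11_CK. OsLTP1.12 (Os11g0116000, chromosome 11, 715445 to 716478) was listed at 3876 FPKM in dgp1_LP and 3079 in dgp1_CK, 1995 in glk1glk2_LP and 2065 in glk1glk2_CK, 2585 in DJ_LP and 3624 in DJ_CK, and 791 in ZH11_NP and 857 in ZH11_CK. OsLTP1.20 was highest in dgp1_LP, and OsLTP1.12 had its 3 highest values in dgp1_LP, DJ_CK and dgp1_CK. LTP1 (Os11g0115400, chromosome 11, 703038 to 703928) was listed at 1130.4 FPKM in dgp1_LP and 1528 in dgp1_CK, 2358 in glk1glk2_LP and 1801 in glk1glk2_CK, 2905 in DJ_LP and 1076 in DJ_CK, and 295 in ZH11_NP and 178 in ZH11_CK, with its highest value in DJ_LP. OsLTP1.18 (Os12g0115100, chromosome 12, 737314 to 738254) was listed at 594 FPKM in dgp1_LP and 2448 in dgp1_CK, 4156 in glk1glk2_LP and 3483 in glk1glk2_CK, 1328 in DJ_LP and 2850.4 in DJ_CK, and 696 in ZH11_NP and 631 in ZH11_CK, and was highest in both glk1glk2 libraries and lowest in dgp1_LP.

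OsLTP1.4 (Os05g0477900, chromosome 5, 23508215 to 23509009), a type 1 gene outside the clusters, was listed at 488 FPKM in dgp1_LP and 177 in dgp1_CK, 2377 in glk1glk2_LP and 2114 in glk1glk2_CK, 407 in DJ_LP and 137 in DJ_CK, and 169.8 in ZH11_NP and 319 in ZH11_CK. Both glk1glk2 libraries stood far above the other 6. OsLTP1.19 (Os12g0115300, chromosome 12, 746162 to 747120) was listed at 370.4 FPKM in dgp1_LP and 1163 in dgp1_CK, 1031 in glk1glk2_LP and 1045 in glk1glk2_CK, 306 in DJ_LP and 1337 in DJ_CK, and 304 in ZH11_NP and 377 in ZH11_CK, and OsLTP1.13 (Os11g0116200, chromosome 11, 722933 to 726970) at 788 FPKM in dgp1_LP and 197 in dgp1_CK, 211 in glk1glk2_LP and 199 in glk1glk2_CK, 291 in DJ_LP and 509 in DJ_CK, and 658 in ZH11_NP and 549 in ZH11_CK. OsLTP1.19 was low in dgp1_LP, DJ_LP and both ZH11 libraries, and OsLTP1.13 was highest in dgp1_LP.

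Type D was led by OsLTPd5 (Os01g0849000, chromosome 1, 36484020 to 36484818), listed at 13.9 FPKM in dgp1_LP and 734 in dgp1_CK, 1291 in glk1glk2_LP and 807 in glk1glk2_CK, 569.9 in DJ_LP and 203 in DJ_CK, and 21 in ZH11_NP and 34.2 in ZH11_CK. OsLTPd5 was low in dgp1_LP and in both ZH11 libraries. OsLTPd4 (Os07g0290200, chromosome 7, 11241360 to 11242082) was listed at 45.3 FPKM in dgp1_LP and 411 in dgp1_CK, 291 in glk1glk2_LP and 253 in glk1glk2_CK, 291 in DJ_LP and 57.6 in DJ_CK, and 36.2 in ZH11_NP and 46.6 in ZH11_CK, and was likewise low in dgp1_LP among the LP libraries. OsLTPd8 (Os05g0160300, chromosome 5, 3539620 to 3540966) was listed at 630.1 FPKM in dgp1_LP and 300.2 in dgp1_CK, 98.4 in glk1glk2_LP and 89.8 in glk1glk2_CK, 325 in DJ_LP and 27.3 in DJ_CK, and 69.4 in ZH11_NP and 85.4 in ZH11_CK, lowest in DJ_CK and highest in dgp1_LP.

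Among type G genes OsLLA1 (Os03g0385400, chromosome 3, 15307624 to 15309776), which encodes a lipid transfer protein-like arabinogalactan protein, was highest. OsLLA1 was listed at 25.2 FPKM in dgp1_LP and 222 in dgp1_CK, 277 in glk1glk2_LP and 312 in glk1glk2_CK, 20.6 in DJ_LP and 191 in DJ_CK, and 204 in ZH11_NP and 263 in ZH11_CK. It was low in dgp1_LP and DJ_LP and lay between 191 and 312 FPKM in the other 6 libraries. The highest type 2 gene, OsLTP2.12 (Os10g0505700, chromosome 10, 19335093 to 19335615), was listed at 329 FPKM in dgp1_LP and 111 in dgp1_CK, 78 in glk1glk2_LP and 58.8 in glk1glk2_CK, 138 in DJ_LP and 89.1 in DJ_CK, and 231 in ZH11_NP and 569 in ZH11_CK. OsLTP2.9 (Os10g0504900, chromosome 10, 19303783 to 19304325), of the same chromosome 10 group, reached 546 FPKM in ZH11_CK, against 12.6 FPKM in ZH11_NP, while of the other 6 libraries glk1glk2_LP alone held reads, at 10.8 FPKM or 0.563 estimated fragments.

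On low phosphate DJ leaves carried more mRNA of LTP2-A, LTP1 and OsLTP1.4, of the type D genes OsLTPd8, OsLTPd4 and OsLTPd5 and of 7 of 10 type G genes, 5 of them with an interval that left out 1, than DJ leaves on normal supply. OsLTP1.18, OsLTP1.19, OsLTP1.5 and OsLLA1 were lower. Of 40 members with at least 5 FPKM in DJ_LP or DJ_CK, 20 were higher and 7 lower, where over all listed genes 23.1% were higher and 24.3% lower. The median log2 ratio was 1.03 over these members and -0.05 over all genes. The interval left out 1 for 13 of the 20 and all 7. The higher members whose interval held 1 rested on at most 0.625 estimated fragments in DJ_CK. They reached 5 FPKM in DJ_LP alone, so their ratios depend on the depth of DJ_CK, and the median of 1.03 includes them. Over all genes it did so for 1691 of the 3551 higher and 2776 of the 3727 lower.

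Between DJ_LP and DJ_CK, LTP2-A was 6.98-fold higher (interval 6.2 to 7.89), LTP1 2.7-fold higher (interval 2.37 to 3.1) and OsLTP1.4 2.97-fold higher (interval 1.8 to 5.26). OsLTP1.19 was 4.37-fold lower (interval 3.82 to 5.0), OsLTP1.5 3.7-fold lower (interval 1.72 to 7.37) and OsLTP1.18 2.15-fold lower (interval 1.97 to 2.34). Of 11 type 1 genes 3 were higher and 3 lower, near the shares over all genes. The type D genes OsLTPd8, OsLTPd4 and OsLTPd5 were 11.9-fold higher (interval 5.07 to 37.1), 5.05-fold higher (interval 2.83 to 10.1) and 2.81-fold higher (interval 2.04 to 3.97). A further type D gene, OsLTPd6, had 27.7 FPKM in DJ_LP and 0 in DJ_CK, and the interval of its ratio, from 0.899 upward, held 1.

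OsLLA1 was the exception among type G genes, 9.24-fold lower (interval 6.06 to 14). The GPI-anchored genes OsLTPG13 and OsLTPG22 were 10.2-fold higher (interval 3.08 to 66.3) and 3.95-fold higher (interval 2.18 to 7.98). OsHyPRP04, a hybrid proline-rich gene whose closest Swiss-Prot match is Arabidopsis AZI1, which acts in the priming of systemic immunity there, had 95.5 FPKM in DJ_LP and 0 in DJ_CK and was at least 6.35-fold higher against a floor of 3 estimated fragments in DJ_CK, with an interval of the ratio from 5.12 upward. The folds given as at least a value use this floor throughout, and the interval, which counts the error of both libraries, begins lower. Os03g0251000 (chromosome 3, 7965176 to 7966095), described only by the lipid transfer and seed storage domain, had 7.11 FPKM in DJ_LP and 126 in DJ_CK and was 17.7-fold lower (interval 9.74 to 33).

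The dgp1 mutant also held more mRNA of LTP2-A and OsLTP1.4 on low phosphate, together with OsLTP1.20, OsLTP1.13 and OsLTP1.17. All 4 measurable type 2 genes were higher too, 3 of them with an interval that left out 1. Of 9 type G genes 3 were higher and 2 lower, near the shares over all genes, where in DJ 7 of 10 were higher. Their median log2 ratio was -0.02 in dgp1. OsLTPd5 and OsLTPd4 were lower. Of 36 members, 19 were higher and 8 lower in dgp1_LP than in dgp1_CK, where over all genes 24% were higher and 20.7% lower, 44.7% in all. The median log2 ratio was 1.12 over these members and 0.03 over all genes, and the interval left out 1 for 17 of the 19 and all 8, against 19.6% and 19.1% of all genes. Type 1 had 8 of 12 genes higher and 2 lower.

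Between dgp1_LP and dgp1_CK, LTP2-A was 85.3-fold higher (interval 61.6 to 122). OsLTP1.20 was 4.44-fold higher (interval 4.05 to 4.87), OsLTP1.13 3.99-fold higher (interval 3.44 to 4.66) and OsLTP1.17 3.48-fold higher (interval 2.87 to 4.27). The type 2 genes OsLTP2.12 and OsLTP2.4 were 2.96-fold higher (interval 2.11 to 4.31) and 2.26-fold higher (interval 1.6 to 3.3). Type 2 proteins are the smaller of the secreted types, and no type 2 gene was lower in this comparison. On the lower side, OsLTPd5 was 52.8-fold lower (interval 42.9 to 65.3), OsLTPd4 9.08-fold lower (interval 7.59 to 10.8) and OsLLA1 8.79-fold lower (interval 7.02 to 11). OsLTP1.18 was 4.12-fold lower (interval 3.87 to 4.39) and OsLTP1.19 3.14-fold lower (interval 2.88 to 3.42).

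Some hybrid proline-rich and type 1 genes were listed at 0 in dgp1_CK. OsLTP1.5 had 66.6 FPKM in dgp1_LP and 0 in dgp1_CK and was at least 5.05-fold higher (interval from 4.09 upward), and OsLTP1.9, in the chromosome 11 group, had 25.8 FPKM in dgp1_LP and 0 in dgp1_CK and was at least 3.49-fold higher (interval from 2.82 upward). The gene qLTG-3-1(t), known in rice for germination at low temperature, had 36.2 FPKM in dgp1_LP and 0 in dgp1_CK and was at least 6.73-fold higher (interval from 5.46 upward).

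Both responses shared part of their members. Of the 19 members higher in dgp1_LP than in dgp1_CK and the 20 higher in DJ_LP than in DJ_CK, 9 were the same, or 47.4% of the dgp1 list and 45% of the DJ list. Over all genes the shares were 32.8% and 34.6%. The 9 were LTP2-A, OsLTP1.4, OsLTP2.4, OsLTPd8, OsLTPG10, OsLTPG13, OsLTPG22, OsHyPRP04 and qLTG-3-1(t). In DJ, qLTG-3-1(t) had 5.1 FPKM in DJ_LP and 0 in DJ_CK, and its interval, from 0.309 upward, held 1. Of the lower members 4 were the same, OsLTP1.18, OsLTP1.19, OsLLA1 and Os02g0445300, or 50% of the dgp1 list and 57.1% of the DJ list, where over all genes the shares were 50.3% and 43.7%. Os02g0445300 rested on 1.67 estimated fragments in dgp1_CK and 1.58 in DJ_CK.

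In 5 members the direction differed between the dgp1 and DJ responses, and in 4 of them the intervals of both ratios left out 1. OsLTPd5 and OsLTPd4 were lower on low phosphate in dgp1 and higher in DJ, and OsLTP1.5 and Os03g0251000 were higher in dgp1 and lower in DJ. OsLTP1.5 had 66.6 FPKM in dgp1_LP and 0 in dgp1_CK, and 30.2 FPKM in DJ_LP and 111 in DJ_CK. Os03g0251000 had 101 FPKM in dgp1_LP and 15.4 in dgp1_CK, and 7.11 FPKM in DJ_LP and 126 in DJ_CK. The fifth, OsLTPG3, had 1.38 FPKM in dgp1_LP and 6.28 in dgp1_CK, and 5.64 FPKM in DJ_LP and 0 in DJ_CK. These differences between genotypes were not tested. How many of all genes differed in direction was not counted, while 44.7% of them passed 2-fold in dgp1 and 47.4% in DJ.

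In glk1glk2 the abundant members differed by less than 2-fold between the supplies. Of 38 members, 8 were higher and 6 lower in glk1glk2_LP than in glk1glk2_CK, where over all genes 23.3% were higher and 23.1% lower. The median log2 ratio was 0.11 over these members and -0.02 over all genes. No interval of the 14 left out 1, where it did for 0.413% of all genes on the higher and 0.58% on the lower side, and these 14 rested on at most 9.89 estimated fragments in either library. For the abundant members the depth sufficed for narrower intervals. Between glk1glk2_LP and glk1glk2_CK, LTP2-A was 1.52-fold lower (interval 1.15 to 2.0), OsLTP1.18 1.19-fold higher (interval 1.02 to 1.4) and OsLTP1.19 1.01-fold lower (interval 0.747 to 1.37). OsLLA1 was 1.13-fold lower (interval 0.627 to 2.02) and OsLTPd5 1.6-fold higher (interval 1.14 to 2.27). OsLTP1.17 was 1.44-fold lower (interval 1.14 to 1.81) and LTP1 1.31-fold higher (interval 1.05 to 1.64).

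**Figure D3:**
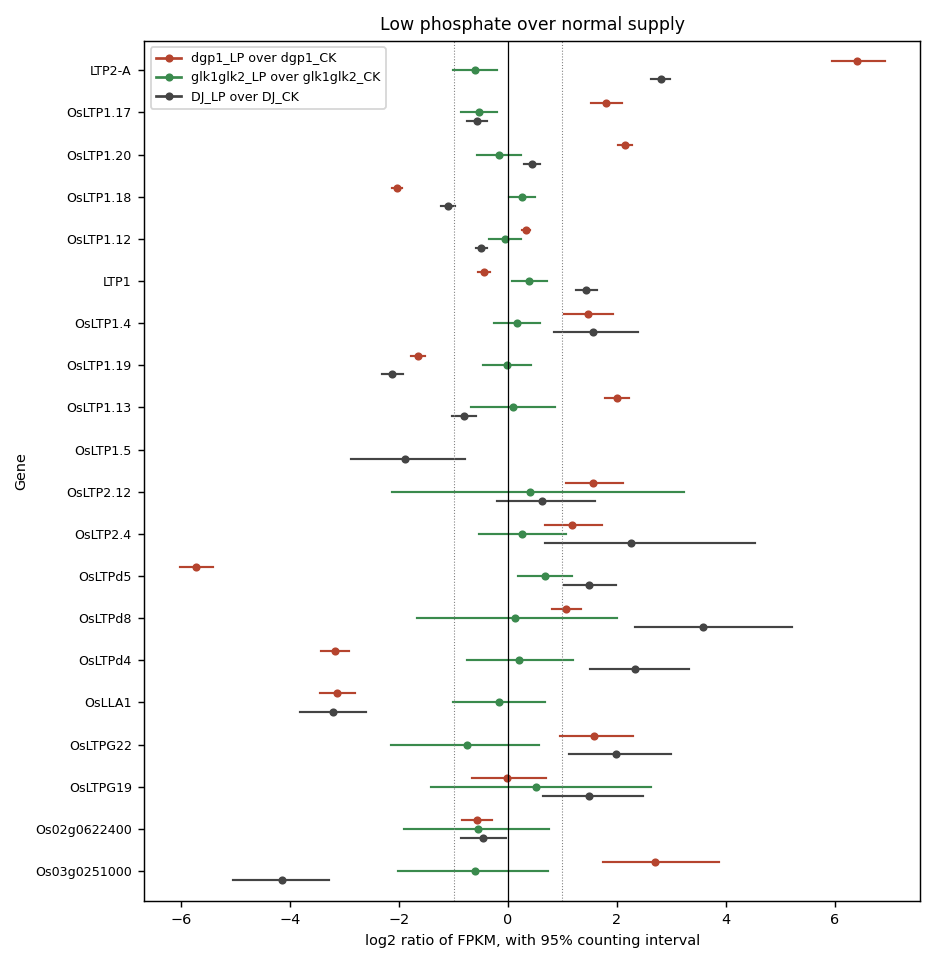
Ratio of low phosphate over normal supply (log2 of the FPKM ratio, without an added constant) for the 20 highest members with a level in the 6-library table, in dgp1, glk1glk2 and DJ. Points are the 1 library pair of each genotype, bars are 95% counting intervals, dotted lines mark 2-fold, and a ratio with a 0 is not drawn. Points of glk1glk2 lie between the 2-fold lines. In dgp1 and DJ, LTP2-A is on the right and OsLTP1.18, OsLTP1.19 and OsLLA1 are on the left.

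Other measures moved with these comparisons. The 5 mesophyll markers (genes of chlorophyll-binding proteins and the small subunit of Rubisco) summed to 44298 FPKM in dgp1_LP and 27151 in dgp1_CK, 3871 in glk1glk2_LP and 4730 in glk1glk2_CK, 8493 in DJ_LP and 14143 in DJ_CK, and 24042 in ZH11_NP and 31889 in ZH11_CK. Their sum was thus higher on low phosphate in dgp1 and lower in DJ, though the markers moved unequally. In dgp1 the Rubisco gene Os12g0274700 went the other way, with 3014 FPKM in dgp1_LP and 3437 in dgp1_CK. The chlorophyll-binding gene CAB2R had 14755 FPKM in dgp1_LP and 2782 in dgp1_CK. In DJ every marker was lower, but CAB1R barely, at 4342 FPKM in DJ_LP and 4351 in DJ_CK. Os12g0274700 had 446 FPKM in DJ_LP and 4540 in DJ_CK. The 3 root markers summed to between 12.2 and 69.8 FPKM, with LSI2 at 0 in every library. Their part in the results, and that of the estimated fragments, was not tested, and in bulk leaf RNA fewer cells of a type and less RNA per cell cannot be told apart.

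The abundant type 1 genes came in facing copies, one on chromosome 11 and one on chromosome 12, and low phosphate went with a different balance between copies in DJ and dgp1. The copies were paired by their shared Swiss-Prot match, a choice made after their values were seen. LTP2-A and OsLTP1.17 matched different Swiss-Prot entries, which were joined by hand as LTP2. This gave 6 pairs, 4 of them abundant. The copies are near relatives, and how reads that fit both were counted is not given in the sources used here, so the division of reads within a pair is uncertain while its sum is less so.

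For LTP2-A and OsLTP1.17, the chromosome 11 copy held 77.7% (interval 77.3 to 78.1%) in dgp1_LP of the summed FPKM and 12.4% (interval 8.63 to 17.3%) in dgp1_CK. In DJ it held 80.8% (interval 80.1 to 81.5%) in DJ_LP and 28.9% (interval 25.5 to 32.5%) in DJ_CK, and in glk1glk2 22% (interval 17.7 to 27%) in glk1glk2_LP and 22.9% (interval 19 to 27.3%) in glk1glk2_CK. The chromosome 11 copy was thus the larger in dgp1_LP and DJ_LP and the smaller in the other 4. The sum of the pair was 7911 FPKM in dgp1_LP and 579 in dgp1_CK, 4712 in glk1glk2_LP and 6862 in glk1glk2_CK, and 10369 in DJ_LP and 4158 in DJ_CK, a ratio of 13.7 in dgp1, 0.687 in glk1glk2 and 2.49 in DJ.

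LTP1 and OsLTP1.18 showed the same switch of the larger copy. The chromosome 11 copy, LTP1, held 65.6% (interval 64.9 to 66.2%) in dgp1_LP and 38.4% (interval 36.2 to 40.7%) in dgp1_CK, 68.6% (interval 67.7 to 69.5%) in DJ_LP and 27.4% (interval 24.4 to 30.6%) in DJ_CK, but 36.2% (interval 32.2 to 40.4%) in glk1glk2_LP and 34.1% (interval 29.4 to 39%) in glk1glk2_CK. In ZH11 it held 29.8% (interval 29 to 30.5%) in ZH11_NP and 22% (interval 21.2 to 22.8%) in ZH11_CK. The sum of the pair was 4233 FPKM in DJ_LP and 3926 in DJ_CK, and 1724 FPKM in dgp1_LP and 3976 in dgp1_CK.

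For OsLTP1.12 and OsLTP1.19 the chromosome 11 copy was the larger everywhere, and its share was 91.3% (interval 91 to 91.5%) in dgp1_LP and 72.6% (interval 70.7 to 74.4%) in dgp1_CK, and 89.4% (interval 88.7 to 90.1%) in DJ_LP and 73% (interval 70.4 to 75.6%) in DJ_CK. It was 65.9% (interval 60.1 to 71.4%) in glk1glk2_LP and 66.4% (interval 60.3 to 72.1%) in glk1glk2_CK, and 72.2% (interval 71.5 to 72.9%) in ZH11_NP and 69.5% (interval 68.8 to 70.2%) in ZH11_CK. The sum of this pair was 4247 FPKM in dgp1_LP and 4243 in dgp1_CK, and 2891 FPKM in DJ_LP and 4962 in DJ_CK.

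OsLTP1.13 and OsLTP1.20 did not follow the other pairs. The chromosome 11 copy, OsLTP1.13, held 14.1% (interval 13.8 to 14.3%) in dgp1_LP and 15.4% (interval 13.2 to 17.8%) in dgp1_CK, 13.5% (interval 9.34 to 18.9%) in glk1glk2_LP and 11.6% (interval 7.71 to 16.6%) in glk1glk2_CK, and 9.43% (interval 8.92 to 9.96%) in DJ_LP and 19.9% (interval 17.3 to 22.7%) in DJ_CK. In DJ its share was thus smaller on low phosphate. In ZH11 the copies were closer to even, at 47.9% (interval 47.2 to 48.5%) in ZH11_NP and 43.2% (interval 42.5 to 43.8%) in ZH11_CK.

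In 3 of the 4 abundant pairs the chromosome 11 share was larger on low phosphate in both DJ and dgp1. There the intervals of the LP and CK shares did not overlap. For OsLTP1.13 and OsLTP1.20 the share was smaller in both, and those intervals overlapped in dgp1 but not in DJ. In glk1glk2 those intervals overlapped in all 4 abundant pairs. The estimated fragments of DJ_LP and dgp1_LP exceeded those of DJ_CK and dgp1_CK by the numbers given above, and their part in the shares was not tested.

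**Figure D4:**
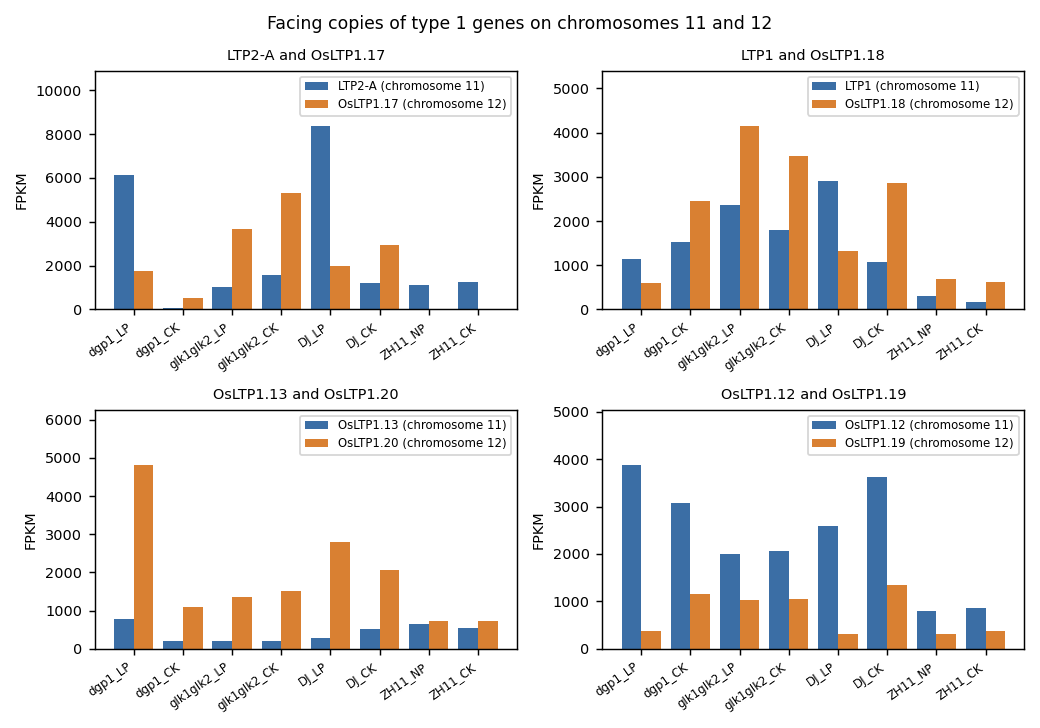
FPKM of the facing copies of type 1 genes in each library, 1 panel per pair, with the chromosome 11 copy in blue and the chromosome 12 copy in orange. Each bar is 1 library. The blue bar exceeds the orange one for LTP2-A and LTP1 in dgp1_LP and DJ_LP and falls below it in dgp1_CK, DJ_CK and both glk1glk2 libraries.

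Under normal supply dgp1 leaves held less mRNA of the LTP2 pair than DJ leaves and more of the type D genes. Of 34 members, 7 were higher and 8 lower in dgp1_CK than in DJ_CK, where over all genes 16.1% were higher and 14.1% lower, and the median log2 ratio was -0.13 over these members and 0.03 over all genes. Scaled to each library's own reads, 6 were higher and 11 lower. The interval left out 1 for 4 of the 7 and 5 of the 8, against 4.71% and 4.29% of all genes. LTP2-A was 16.7-fold lower (interval 11.7 to 24.3) and OsLTP1.17 5.84-fold lower (interval 4.65 to 7.38). OsLTP1.13 was 2.58-fold lower (interval 2.1 to 3.18), and OsLTP1.5, listed at 0 in dgp1_CK and 111 FPKM in DJ_CK, was at least 8.46-fold lower (interval from 5.85 upward). Of 11 type 1 genes 5 were lower, 4 of them with an interval that left out 1, and 0 higher. All 3 measurable type D genes were higher, OsLTPd8 11-fold higher (interval 4.58 to 34.8), OsLTPd4 7.14-fold higher (interval 3.92 to 14.4) and OsLTPd5 3.61-fold higher (interval 2.58 to 5.19).

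On low phosphate OsLTPd5 and OsLTPd4 of dgp1 stood below DJ, while OsLTPd8 stood above it under both supplies. Of 41 members, 11 were higher and 14 lower in dgp1_LP than in DJ_LP, where over all genes 20.9% were higher and 13.4% lower, and the median log2 ratio was -0.16 over these members and 0.08 over all genes. Scaled to own reads, 6 were higher and 18 lower. OsLTPd5 was 41-fold lower (interval 34.2 to 49.5) and OsLTPd4 6.43-fold lower (interval 5.68 to 7.28), and OsLTPd6, at 0 in dgp1_LP and 27.7 FPKM in DJ_LP, was at least 57.9-fold lower (interval from 44.9 upward). OsLTPd8, at 630.1 FPKM in dgp1_LP and 325 in DJ_LP, was 1.94-fold higher (interval 1.79 to 2.11), short of the 2-fold threshold. Type G genes had 4 of 10 lower and 0 higher, among them OsLTPG18 and OsLTPG13. Type 2 genes had 4 of 5 higher, with OsLTP2.12 2.39-fold higher (interval 2.07 to 2.77) and OsLTP2.4 2.32-fold higher (interval 1.97 to 2.75). LTP1 was 2.57-fold lower (interval 2.49 to 2.65) and OsLTP1.13 2.71-fold higher (interval 2.56 to 2.87).

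The comparisons of dgp1 with DJ under the 2 supplies share no library with each other, but each shares both of its libraries with the low-phosphate responses above. Of the 7 members higher under normal supply and the 11 higher on low phosphate, 2 were the same, OsLTP2.4 and Os03g0710700, or 28.6% and 18.2% of these lists, against 17.4% and 13.1% over all genes. Of the 8 lower under normal supply and the 14 lower on low phosphate OsLTP1.14 alone was the same, or 12.5% and 7.14%, against 8.23% and 8.51% over all genes, and in dgp1_CK over DJ_CK it rested on 1.44 estimated fragments in DJ_CK with an interval that held 1.

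The glk1glk2 double mutant held more mRNA of OsLTP1.4, OsLTP2.4 and OsLTPd5 than DJ under both supplies. Of 37 members, 17 were higher and 6 lower in glk1glk2_CK than in DJ_CK, where over all genes 27.4% were higher and 31.3% lower, and the median log2 ratio was 0.74 over these members and -0.08 over all genes. The interval left out 1 for 7 of the 17 and 1 of the 6, against 6.4% and 6.93% of all genes. The median of 0.74 includes the members whose interval held 1. OsLTP2.4 was 23.5-fold higher (interval 7.19 to 120.4), OsLTP1.4 15.4-fold higher (interval 8.94 to 28.3), OsLTPd5 3.97-fold higher (interval 2.58 to 6.16) and OsLTPd4 4.39-fold higher (interval 1.97 to 10.2). By type, 4 of 4 type D genes, 3 of 4 type 2 genes, 3 of 3 hybrid proline-rich genes and 5 of 9 type G genes were higher, and the interval left out 1 for 2, 1, 1 and 2 of them in that order. Type G had 1 gene lower, and type 1 had 1 of 11 higher and 3 lower. OsHyPRP04 had 95 FPKM in glk1glk2_CK and 0 in DJ_CK and was at least 6.32-fold higher, on 6.73 estimated fragments in glk1glk2_CK (interval from 3.86 upward). OsLTP1.13 was 2.56-fold lower (interval 1.73 to 3.93).

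On low phosphate 12 of 42 members were higher and 10 lower in glk1glk2_LP than in DJ_LP, where over all genes 23.5% were higher and 26% lower, and the median log2 ratio was -0.29 over these members and -0.02 over all genes. The interval left out 1 for 10 of the 12 and 3 of the 10. Over all genes it did so for 1640 of the 3610 higher and 764 of the 3987 lower. OsLTP2.4 was 5.9-fold higher (interval 3.94 to 8.61), OsLTP1.4 5.85-fold higher (interval 4.7 to 7.21) and OsLTPd5 2.26-fold higher (interval 1.82 to 2.79). OsLLA1 was 13.4-fold higher (interval 8.03 to 21.9), OsLTP1.19 3.37-fold higher (interval 2.69 to 4.18) and OsLTP1.18 3.13-fold higher (interval 2.8 to 3.49), whereas LTP2-A was 8.07-fold lower (interval 6.59 to 10.0) and OsLTPd8 3.3-fold lower (interval 1.6 to 8.2). Os03g0251000 was 13-fold higher (interval 5.22 to 30.0). Type 2 genes had 5 of 7 higher, 3 of them with an interval that left out 1, and 1 lower.

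Of the 17 members higher under normal supply and the 12 higher on low phosphate, 5 were the same, OsLTP1.4, OsLTP2.4, OsLTP2.5, OsLTP2.6 and OsLTPd5, or 29.4% and 41.7% of these lists, against 26.9% and 31.7% over all genes. OsLTP2.5 rested on 1.40 estimated fragments in glk1glk2_LP and 1.03 in glk1glk2_CK, and OsLTP2.6 on 3.06 and 2.75. Under normal supply the intervals of both OsLTP2.5 and OsLTP2.6 held 1. Of the 6 lower under normal supply and the 10 lower on low phosphate OsLTPG4 and OsLTP1.5 were the same, or 33.3% and 20%, against 26.7% and 32.6% over all genes. OsLTPG4 was listed at 0 in both glk1glk2 libraries, against 22.9 FPKM in DJ_LP and 32 in DJ_CK, and these DJ levels lay under the floor of 3 estimated fragments in the glk1glk2 libraries. OsLTP1.5 was listed at 0 in glk1glk2_LP, against 30.2 FPKM in DJ_LP, and at 32.1 FPKM in glk1glk2_CK, against 111 FPKM in DJ_CK, and both intervals held 1.

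**Figure D5:**
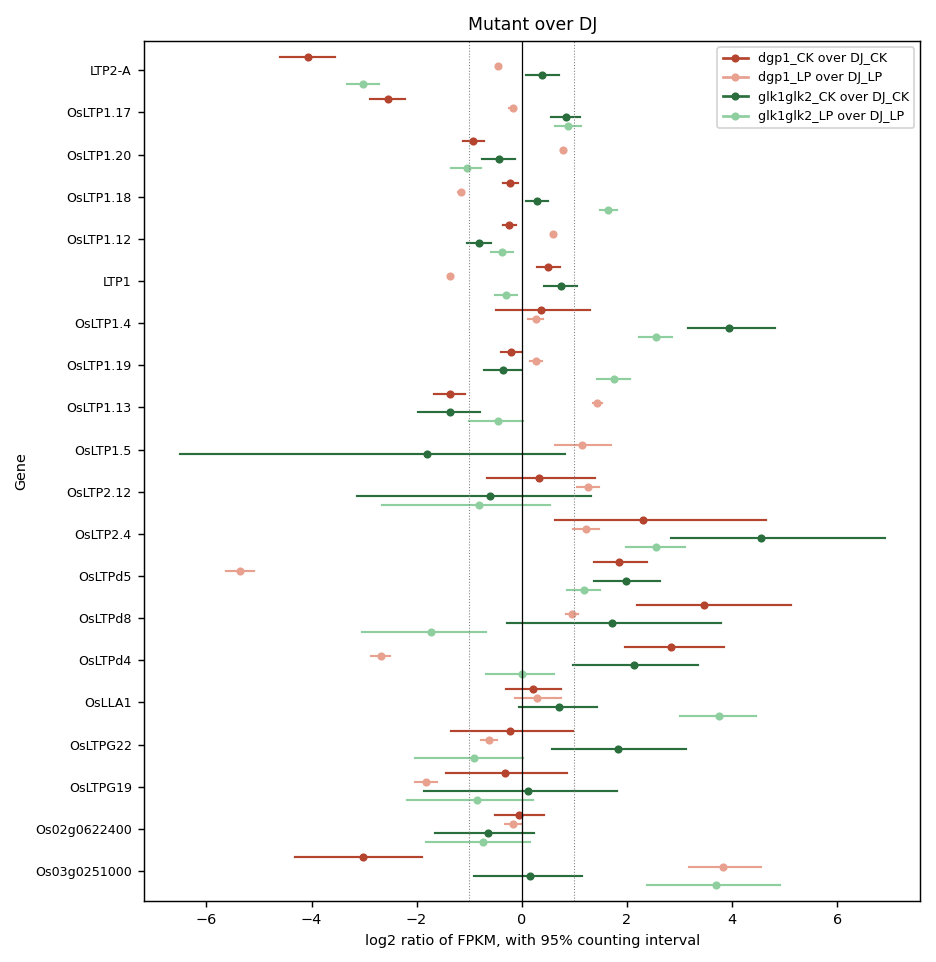
Ratio of mutant over DJ (log2 of the FPKM ratio, without an added constant) under normal supply and on low phosphate for the 20 highest members with a level in the 6-library table. Points are 1 library pair each, bars are 95% counting intervals, dotted lines mark 2-fold, and a ratio with a 0 is not drawn. OsLTP1.4 and OsLTP2.4 lie to the right in both glk1glk2 comparisons, and OsLTPd5 lies to the right for dgp1_CK and far to the left for dgp1_LP.

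In ZH11 leaves 24 h without phosphate, 12.5% of the measured members differed from normal supply, against 4.81% of all genes. The clearest were type 2 genes of the chromosome 10 group. Of 40 members, 1 was higher and 4 lower in ZH11_NP than in ZH11_CK, where over all genes 1.61% were higher and 3.19% lower, 4.81% in all, and the median log2 ratio was -0.30 over these members and -0.03 over all genes. The interval left out 1 for the 1 and the 4. Over all genes it did so for 238 of the 242 higher and 478 of the 479 lower. OsLTP2.9 had 12.6 FPKM in ZH11_NP and 546 in ZH11_CK and was 43.2-fold lower (interval 35.6 to 52.9). OsLTP2.7, of the same group, had 0.579 FPKM in ZH11_NP and 21.7 in ZH11_CK and was 37.4-fold lower (interval 12.5 to 184). OsLTP2.12 was 2.46-fold lower (interval 2.34 to 2.6), and the type G gene OsLTPG18 3.77-fold lower (interval 3.06 to 4.67). The 1 higher member was the type 1 gene OsLTP1.2 (Os01g0822900, chromosome 1, 35130013 to 35130913), which had 20.8 FPKM in ZH11_NP and 2.94 in ZH11_CK and was 7.07-fold higher (interval 5.03 to 10.2). OsLTP1.2 was listed at 0.544 FPKM in dgp1_LP and at 0 in the other 5 libraries of the first table.

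LTP2-A, OsLLA1 and OsHyPRP04, past 2-fold between DJ_LP and DJ_CK, were not past it in ZH11. LTP2-A had 1093 FPKM in ZH11_NP and 1265 in ZH11_CK, OsLLA1 had 204 FPKM in ZH11_NP and 263 in ZH11_CK, and OsHyPRP04 had 119.8 FPKM in ZH11_NP and 218 in ZH11_CK. OsLTP1.4, higher on low phosphate in DJ and dgp1, had 169.8 FPKM in ZH11_NP and 319 in ZH11_CK, and LTP1 had 295 FPKM in ZH11_NP and 178 in ZH11_CK. The time without phosphate, the medium and the wild type all differ between this pair and DJ, and their parts cannot be told apart.

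Glycolipid transfer genes, of the unrelated fold, were measured in small number. Os02g0622400 (chromosome 2, 24779930 to 24782717), the highest of them, whose Swiss-Prot match is Arabidopsis GLTP1, was listed at 140.3 FPKM in dgp1_LP and 209 in dgp1_CK, 94.2 in glk1glk2_LP and 138 in glk1glk2_CK, 157 in DJ_LP and 216 in DJ_CK, and 60.0 in ZH11_NP and 69.1 in ZH11_CK. Its values on low phosphate were the lower ones in all 3 genotypes, as was its value without phosphate in ZH11, each by less than 2-fold. In glk1glk2 it was 1.46-fold lower (interval 0.589 to 3.74), on 9.85 estimated fragments in glk1glk2_LP and 13.0 in glk1glk2_CK, and this interval held 1. Of 4 such genes measured, 0 were higher and 1 lower in dgp1_LP than in dgp1_CK, 3 were higher and 0 lower in glk1glk2_LP than in glk1glk2_CK, and 1 was higher and 0 lower in DJ_LP than in DJ_CK. The interval left out 1 for the dgp1 gene, Os04g0438600, and for none of the 3 in glk1glk2 or the 1 in DJ. Over all genes the shares were those given above, 24% higher and 20.7% lower in dgp1, 23.3% and 23.1% in glk1glk2, and 23.1% and 24.3% in DJ.

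Genes matched by words for cutin, wax and related families were set beside the members, which are known for roles in cutin and wax deposition. The list took 196 genes by words in their names or descriptions (among them wax, cutin, cuticle, ketoacyl-CoA synthase and ABC transporter G) and held no member. Words that name a whole family, such as ABC transporter G, may also take genes with other roles. Of 52 with at least 5 FPKM, 24 were higher and 7 lower in dgp1_LP than in dgp1_CK, beside 24% and 20.7% over all genes. Of 54, 11 were higher and 12 lower in glk1glk2_LP than in glk1glk2_CK, beside 23.3% and 23.1%, and of 54, 18 were higher and 7 lower in DJ_LP than in DJ_CK, beside 23.1% and 24.3%. In dgp1_CK over DJ_CK 4 of 46 were higher and 14 lower, beside 16.1% and 14.1% over all genes, and in dgp1_LP over DJ_LP 12 of 54 were higher and 7 lower, beside 20.9% and 13.4%. In glk1glk2_CK over DJ_CK 14 of 56 were higher and 16 lower, beside 27.4% and 31.3%, and in glk1glk2_LP over DJ_LP 11 of 55 were higher and 17 lower, beside 23.5% and 26%. In ZH11_NP over ZH11_CK 2 of 59 were higher and 5 lower, beside 1.61% and 3.19%. The median log2 ratio of the list was 0.62 for the dgp1 response and -0.01 for the DJ response, against 0.03 and -0.05 over all genes.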

How the data were processed

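The authors deposited 1 table for the libraries of DJ, dgp1 and glk1glk2 (40718 genes) and 1 for those of ZH11 (38977 genes). Per the labels' protocols the libraries were made with a directional kit. Which aligner, counter and genome build were used is not given in the sources used here. In the headers the deposited values have no unit. They were read as the authors' FPKM because each value times gene length was a whole multiple of a step of its library, within 0.01, for 100% of values. That step gave back the reads. The distribution of genes over read numbers was searched for a peak from 5 to 600 reads, and a peak counted as 1 cDNA fragment. It lay at 21 reads for dgp1_CK, 151 for glk1glk2_LP, 186 for glk1glk2_CK, 7 for DJ_LP and 48 for DJ_CK, and none was found for the other 3 libraries, where 1 read was taken as 1 fragment.

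Members were joined on gene ID, and ratios were formed only within a table, as log2 of FPKM + 1. A fold against a 0 is given against a floor of 3 estimated fragments per library. Percentages over all genes use the same thresholds on the whole table. Named members were the 10 highest, and per comparison the 4 highest and 4 lowest ratios, among members with at least 10 FPKM. The members OsLTP1.14, OsLTP2.5, OsLTPG10, OsLTPG22, Os02g0622400, Os03g0710700, Os04g0438600, OSC6 and the non-coding entries, and the pairs of copies, were chosen after their values were seen. Members and lists were chosen with earlier results of these data known. No sequence is shown, since no reference sequence was at hand. Alternatives were the added constant, the minimum level, the fold, 2 scalings, the overlapping genes, the interval, the copies, the fragment size and, for the summed level, leaving out LTP2-A, chosen after seeing the data. The calculation was tested on simulated data in which reads were drawn independently, so several reads per cDNA fragment were not simulated. It used Python 3.11.15, numpy 2.4.6, pandas 2.3.3, scipy 1.17.1 and matplotlib 3.10.9.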

Additional observations from a re-analysis of the deposited data

Results flagged for a closer look

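Members whose ratio of low phosphate over normal supply ran one way in dgp1 and the other way in DJ, with both counting intervals leaving out 1, are given here with their log2 ratios of FPKM + 1. OsLTPd5 stood at -5.63 in dgp1 and 1.48 in DJ. OsLTPd4 stood at -3.16 in dgp1 and 2.32 in DJ. Os03g0251000 stood at 2.63 in dgp1 and -3.97 in DJ. OsLTP1.5 stood at 6.08 in dgp1 and -1.85 in DJ. With 1 library a group, these differences were not tested, and their number was not set against that over all genes.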

How the results depend on the processing

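Of the counts of members higher or lower, 84 values under the alternatives stayed within 1.5 times the reported count and 12 moved further. Counting only members whose interval left out 1 gave 0 in place of 14 for glk1glk2_LP over glk1glk2_CK, 9 in place of 15 for dgp1_CK over DJ_CK, 8 in place of 23 for glk1glk2_CK over DJ_CK and 13 in place of 22 for glk1glk2_LP over DJ_LP. With the peak read number divided by 2 as 1 fragment, an alternative chosen after seeing the data, the interval left 2, 9 and 12 in the first 3 of these. A minimum of 1 FPKM, or none, gave 23 for dgp1_CK over DJ_CK and 9 in place of 5 for ZH11_NP over ZH11_CK. At 3-fold, dgp1_LP over DJ_LP had 16 in place of 25. Of single ratios of named members, 850 values stayed within the counting interval, 70 moved past it and 0 reversed.

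Scaling to own reads shifted the median of all genes by 0.44 for DJ_LP over DJ_CK, 0.12 for dgp1_LP over dgp1_CK, -0.29 for dgp1_CK over DJ_CK, 0.45 for glk1glk2_CK over DJ_CK and -0.56 for dgp1_LP over DJ_LP on the log2 scale. No paired analysis was possible because each group is 1 library. Leaving out near-identical copies by protein identity was not run, as no protein sequences were at hand. Leaving out the chromosome 11 and 12 copies, also chosen after seeing the data, moved no count past 1.5 times. Depth limits the glk1glk2 libraries most.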
